A study of Beta vulgaris with 12 samples.

Results

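The proline genes of sugar beet roots were the 7 genes, of 28320 in the expression table, whose description names pyrroline-5-carboxylate, proline dehydrogenase or proline transporter. They were 3 genes for delta-1-pyrroline-5-carboxylate synthase (P5CS), 1 for pyrroline-5-carboxylate reductase (P5CR), 1 for proline dehydrogenase (ProDH) and 2 for proline transporters. The rule read the descriptions and no measured values. The RNA came from roots of Beta vulgaris seedlings grown in Hoagland nutrient solution and 4 weeks old when the treatment began. The S_7 roots had received NaCl and Na2SO4 at 300 mM Na+ for 7 days, and the CK_7 roots were taken on the same day from plants given nutrient solution alone. The S_1 roots and their CK_1 controls were taken after 1 day. Each of the 4 groups had 3 biological replicates, all of the cultivar KWS0143, so no genotype differed between groups. The labels give 300 mM Na+ for S_1 as well. The methods also describe a gradual rise to that level and do not say whether the day of treatment was counted from its start or its end. The samples were whole roots, in which fewer cells of a type and less RNA per cell cannot be told apart.

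Plants make proline mainly from glutamate. P5CS, the rate-limiting and bifunctional first enzyme, reduces glutamate to pyrroline-5-carboxylate (P5C), and P5CR reduces P5C to proline. In mitochondria, ProDH oxidizes proline back to P5C and P5C dehydrogenase (P5CDH) returns it to glutamate, while ornithine aminotransferase offers another source of P5C. Transporters of the ProT family carry proline across the plasma membrane, and several of them also carry glycine betaine. Proline is known as a compatible solute that many plants build up under salt or drought.

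Values are FPKM, sequenced fragments scaled to the length of the transcript and to the mapped fragments of the library, so that genes can be set side by side. Fold changes are differences in log2(FPKM + 1) with the standard error (SE) from limma, and this scale understates the change of genes with a low level. A gene was called at an unadjusted P under 0.05 with a log2 fold change beyond 1 in either direction. Called genes are said below to have risen or fallen. The thresholds are those of the study, which used Ballgown, and were applied here to the limma values of log2(FPKM + 1). The adjusted p (Benjamini-Hochberg, over all tested genes) is given as well. With 3 libraries against 3, an exact permutation test cannot go below 0.1.

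The 12 libraries summed to between 382847 and 423530 FPKM and had 23688 to 24234 genes above 0. FPKM values do not hold the read depth, and the relative depth of the libraries, estimated from the lowest values of few genes, lay between 0.901 and 1.27. Over 17146 genes, libraries of the same group correlated at r = 0.822 to 0.877 (12 pairs) and libraries of different groups at 0.708 to 0.825 (54 pairs). The 3 genes described as Casparian strip membrane proteins, which mark the endodermis of roots, were detected and summed to 72.7 to 104.1 FPKM in S_7, 14.9 to 44.4 in CK_7, 15.5 to 80.9 in S_1 and 13.1 to 61.1 in CK_1. The 29 genes of 4 photosynthesis descriptions, which mark green tissue, summed to 16.2 to 33.2 FPKM in S_7, 27.3 to 41.9 in CK_7, 83.6 to 468.7 in S_1 and 90.9 to 232.1 in CK_1. Of these 29 genes, 24 had a mean of at least 1 FPKM.

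All 7 proline genes were above 0 in every library. The most abundant were ProDH (mean over 12 libraries 83.7 FPKM, at percentile 97.3 of all genes), a transporter (82.2 FPKM, percentile 97.2) and a P5CS gene (45.3 FPKM, percentile 94.4). The other 4 averaged 1.44 to 7.66 FPKM. The order of the most abundant genes differed between groups. In CK_1 ProDH averaged 159.5 FPKM, the transporter 75.1 and the P5CS gene 37.0. In S_7 ProDH averaged 28.8 FPKM, the transporter 129.3 and the P5CS gene 52.5. Under salt, the main P5CS gene was higher on both days, with an adjusted p under 0.05 on day 7 only. It stayed inside the fold limit on the scale used, and close to it on day 7. Each transporter was called on a different day, at an adjusted p above 0.05, and a difference between the days was not established for either. Neither P5CR nor ProDH was called on either day.

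**Figure D1:**
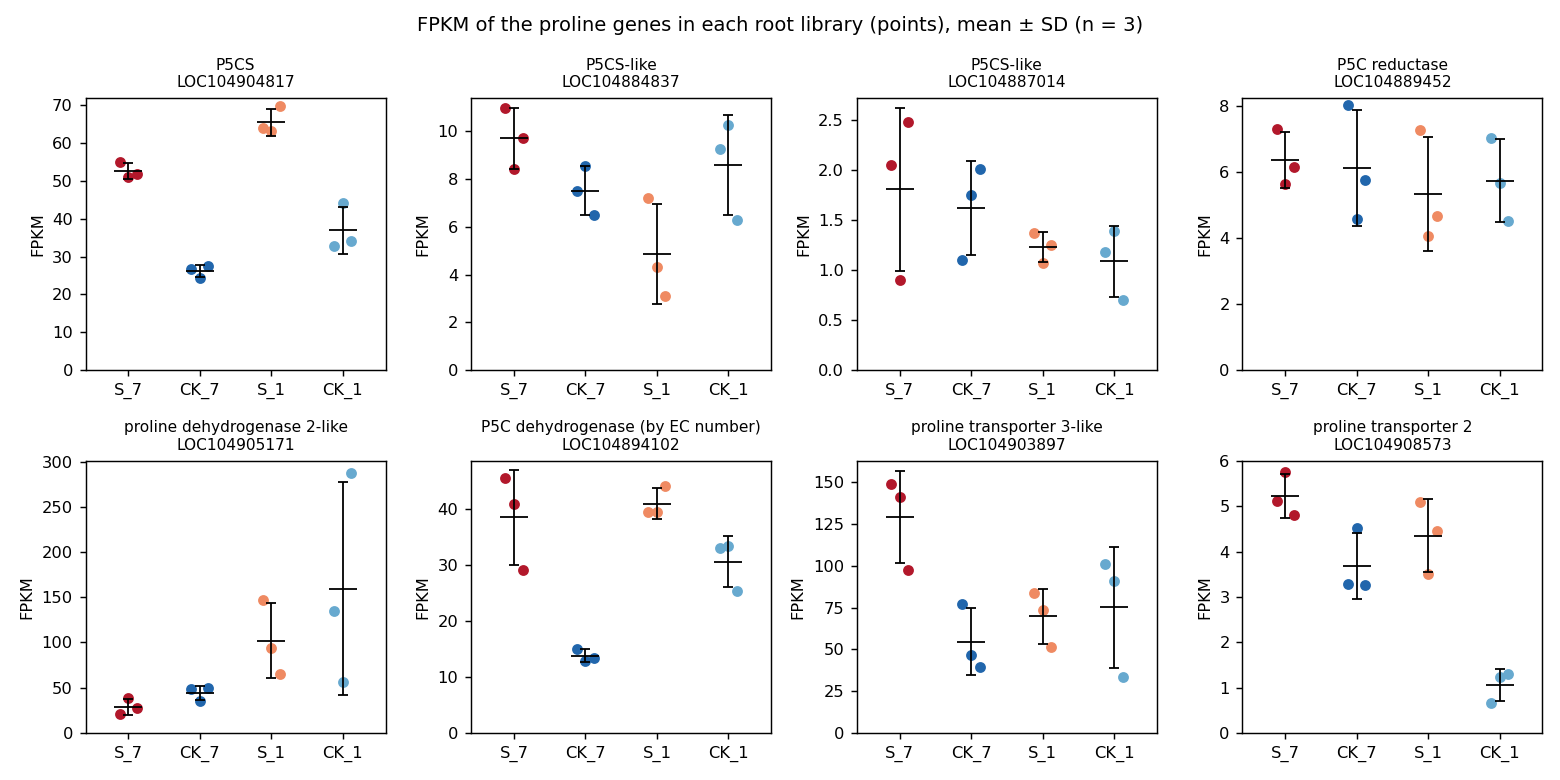
FPKM (vertical axes, linear from 0) of the 7 proline genes and of the gene annotated with the P5CDH enzyme number, in the 3 libraries of each of the 4 groups. Points are libraries and bars are the mean ± SD (n = 3). The main P5CS gene lies at 51.1 to 54.8 FPKM in S_7 and 24.4 to 27.5 in CK_7, and ProDH spreads from 55.8 to 287.6 FPKM within CK_1.

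The main P5CS gene, LOC104904817, had 54.8, 51.1 and 51.7 FPKM in the S_7 libraries, against 26.7, 24.4 and 27.5 FPKM in CK_7. On day 1 it had 63.8, 63.0 and 69.6 FPKM in S_1, against 32.7, 44.1 and 34.1 FPKM in CK_1. Every salt library was above every control library of its day, and the 4 groups did not overlap at all, in the order S_1, S_7, CK_1 and CK_7. The group means were 52.5 ± 2.02 FPKM in S_7 and 26.2 ± 1.60 in CK_7, a ratio of 2.01, and 65.5 ± 3.59 FPKM in S_1 and 37.0 ± 6.22 in CK_1, a ratio of 1.77 (SD, n = 3 each). The log2 fold change of LOC104904817 was 0.98 (SE 0.087, adjusted p = 0.0161) on day 7, where it held place 82 of 27411 tested genes by its P. It was 0.82 (SE 0.17, adjusted p = 0.102) on day 1. Both lay under the fold limit of 1 on the log2(FPKM + 1) scale, so the gene was not called on either day. The ratio of plain FPKM means was 2.01 on day 7, so missing the limit on that day rests on the added 1. With a pseudocount of 0.1 the day 7 value was 1.00 and without CK_7 replicate 3 it was 1.01, and both were called. With any 1 library left out, the adjusted p on day 7 was 0.0458 to 0.0595, and it was above 0.05 without CK_7 replicate 1, 2 or 3 or S_7 replicate 3. Over all 12 alternatives the adjusted p on day 7 was 0.00454 to 0.165, highest with the replicate block, and it was under 0.05 in 7 of them. The adjusted p on day 1 was 0.00585 to 0.313 over its 12 alternatives, and under 0.05 in 1 of them.

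The second P5CS gene by level, LOC104884837 (described as P5CS-like), had 11.0, 8.39 and 9.72 FPKM in S_7, against 7.50, 8.55 and 6.48 FPKM in CK_7. The day 1 values were 7.19, 4.30 and 3.09 FPKM in S_1, against 9.25, 10.3 and 6.26 FPKM in CK_1. The salt and control libraries overlapped on each day, and the S_1 mean was under the CK_1 mean while the S_7 mean was above that of CK_7. The log2 fold change was 0.33 (SE 0.15, adjusted p = 0.322) on day 7 and -0.75 (SE 0.33, adjusted p = 0.348) on day 1, and neither was called. Without S_1 replicate 1 the day 1 value was -1.02 and was called (adjusted p = 0.256, range over the alternatives 0.144 to 0.581). The difference between the days was 1.08 (SE 0.37, adjusted p = 0.204 for the interaction), so a different salt response of this gene on the 2 days was not established.

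The third P5CS gene, LOC104887014, had a low level. It had 2.05, 0.897 and 2.48 FPKM in S_7, against 1.10, 1.75 and 2.02 FPKM in CK_7, and 1.37, 1.07 and 1.25 FPKM in S_1, against 1.18, 1.39 and 0.699 FPKM in CK_1. The groups overlapped on both days, with log2 fold changes of 0.070 (SE 0.30, adjusted p = 0.925) and 0.11 (SE 0.21, adjusted p = 0.849). Its value combines 41 transcripts, 40 of which carry a RefSeq accession of the non-coding kind, whereas LOC104904817 combines 5 transcripts and LOC104884837 combines 10, of which 5 are of that kind. How reads shared by the 3 P5CS genes were divided between them was not tested.

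LOC104904817 alone held 80.8% to 84.6% of the summed P5CS level in S_7, 70.3% to 76.4% in CK_7, 88.2% to 94.1% in S_1 and 75.8% to 83.0% in CK_1. The salt libraries lay above the control libraries of the same day in this share. It is computed from the FPKM values given above and is not a separate result. The summed P5CS level was 64.0 ± 3.75 FPKM in S_7 and 35.3 ± 0.652 in CK_7, and 71.5 ± 2.85 FPKM in S_1 and 46.7 ± 7.96 in CK_1 (SD, n = 3 each).

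P5CR (LOC104889452), the last enzyme of synthesis, had 7.30, 5.64 and 6.15 FPKM in S_7, against 8.02, 4.59 and 5.75 FPKM in CK_7. In the day 1 libraries it had 7.28, 4.06 and 4.65 FPKM in S_1, against 7.02, 5.67 and 4.50 FPKM in CK_1. All 4 groups overlapped, and the log2 fold changes were 0.071 (SE 0.22, adjusted p = 0.890) on day 7 and -0.10 (SE 0.27, adjusted p = 0.884) on day 1. In every library the level of the main P5CS gene was above that of P5CR.

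ProDH (LOC104905171, described as proline dehydrogenase 2, mitochondrial-like) catalyzes the first step of proline breakdown. It had 21.0, 38.4 and 27.1 FPKM in S_7, against 48.6, 35.6 and 49.3 FPKM in CK_7. The day 1 libraries held 146.9, 94.2 and 65.1 FPKM in S_1, against 135.2, 55.8 and 287.6 FPKM in CK_1. The S_7 libraries overlapped with CK_7 through 1 library of each group, and the CK_1 libraries spanned the whole range of S_1. The log2 fold change was -0.64 (SE 0.25, adjusted p = 0.261) on day 7 and -0.42 (SE 0.64, adjusted p = 0.793) on day 1, and neither was called. With 1 library left out the day 1 value was -1.02 to 0.15, and it was 0.15 without CK_1 replicate 3. The SE of ProDH on day 1 was the largest of the 7 genes.

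P5CDH, the other enzyme of breakdown, was not among the descriptions. In the annotation column of enzyme numbers, 1 gene carried that of P5CDH (EC 1.2.1.88), namely LOC104894102, described as a probable aldehyde dehydrogenase. It had 45.4, 40.8 and 29.1 FPKM in S_7, against 15.0, 12.9 and 13.4 FPKM in CK_7, with no overlap. After 1 day it had 39.3, 39.4 and 44.0 FPKM in S_1, against 33.0, 33.4 and 25.2 FPKM in CK_1. LOC104894102 rose on day 7, with a log2 fold change of 1.40 (SE 0.18, adjusted p = 0.0370), and was not called on day 1 at 0.42 (SE 0.16, adjusted p = 0.296). Its CK_7 level lay below every CK_1 library, a fall of 1.09 on the log2 scale (SE 0.16, adjusted p = 0.0207), while S_7 and S_1 overlapped (log2 fold change -0.11, adjusted p = 0.755). The interaction was 0.98 (SE 0.24, adjusted p = 0.0855).

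The P5CDH gene, which rose on day 7 (log2 fold change 1.40), was left out of the measure described here. P5CS was set against ProDH alone, as the summed P5CS level over the ProDH level in each library. The scale of the library drops out of this ratio. It was 3.24, 1.57 and 2.36 in S_7, against 0.726, 0.973 and 0.730 in CK_7. After 1 day it was 0.492, 0.726 and 1.14 in S_1, against 0.319, 0.999 and 0.143 in CK_1. On day 7 every salt library had more P5CS than ProDH and every control library had less, whereas the day 1 groups overlapped. The means were 2.39 ± 0.832 in S_7, 0.810 ± 0.142 in CK_7, 0.785 ± 0.326 in S_1 and 0.487 ± 0.452 in CK_1 (SD, n = 3 each). With LOC104904817 alone as the numerator the means were 1.95 in S_7, 0.597 in CK_7, 0.724 in S_1 and 0.384 in CK_1.

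**Figure D2:**
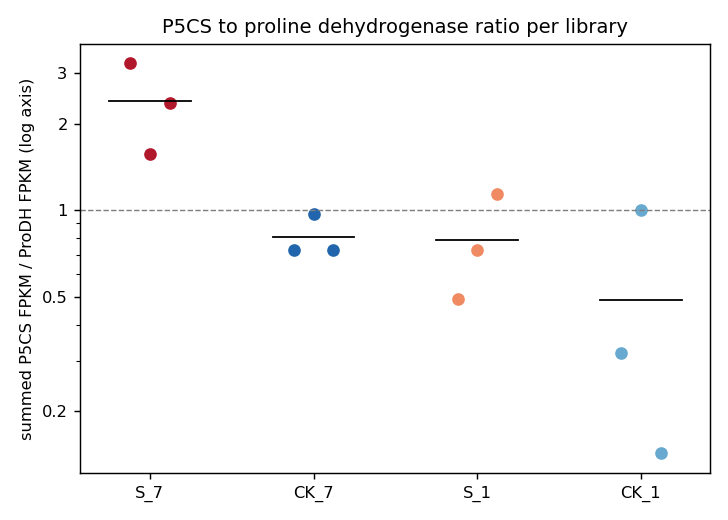
Summed FPKM of the 3 P5CS genes divided by the FPKM of ProDH (vertical log axis) in each library of the 4 groups. Points are libraries, short lines are group means and the dashed line marks a ratio of 1. The S_7 libraries lie at 1.57 to 3.24, above the CK_7 libraries at 0.726 to 0.973.

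The transporter described as proline transporter 3-like, LOC104903897, was the more abundant of the pair. It had 148.8, 141.2 and 97.7 FPKM in S_7, against 77.2, 46.9 and 39.5 FPKM in CK_7, so that the groups did not overlap on day 7. The day 1 values were 84.0, 73.8 and 51.3 FPKM in S_1, against 101.0, 90.9 and 33.6 FPKM in CK_1, and these groups overlapped. LOC104903897 rose on day 7 with a log2 fold change of 1.26 (SE 0.30) and a ratio of means of 2.37. Its adjusted p was 0.114, and over the alternatives 0.0844 to 0.252, so the call did not hold after adjustment. On day 1 the log2 fold change was 0.013 (SE 0.46, adjusted p = 0.993), and it was -0.48 to 0.30 with 1 library left out. The interaction was 1.25 (SE 0.59, adjusted p = 0.372). The Casparian strip genes also summed higher in S_7 (72.7 to 104.1 FPKM) than in CK_7 (14.9 to 44.4 FPKM), and their part in the result was not tested.

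Proline transporter 2 (LOC104908573) had 5.11, 5.75 and 4.81 FPKM in S_7, against 3.28, 4.51 and 3.26 FPKM in CK_7. On day 1 it had 5.10, 3.50 and 4.46 FPKM in S_1, against 0.661, 1.24 and 1.299 FPKM in CK_1. The salt libraries were above the controls on both days, and the CK_1 libraries were the lowest of all 12. LOC104908573 rose on day 1 with a log2 fold change of 1.38 (SE 0.27, adjusted p = 0.0934) and a ratio of means of 4.09. With a pseudocount of 0.1 the log2 fold change was 1.97. The adjusted p over the alternatives was 0.00578 to 0.313. On day 7 the log2 fold change was 0.42 (SE 0.17, adjusted p = 0.278), and the gene was not called. The interaction was -0.96 (SE 0.28, adjusted p = 0.145), so the smaller salt difference on day 7 was not established as a difference between the days.

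In FPKM the 3-like gene stood far above transporter 2 in every library. The ratio of the 2 levels was 20.3 to 29.1 in S_7, 10.4 to 23.6 in CK_7, 11.5 to 21.1 in S_1 and 25.9 to 152.6 in CK_1.

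**Figure D3:**
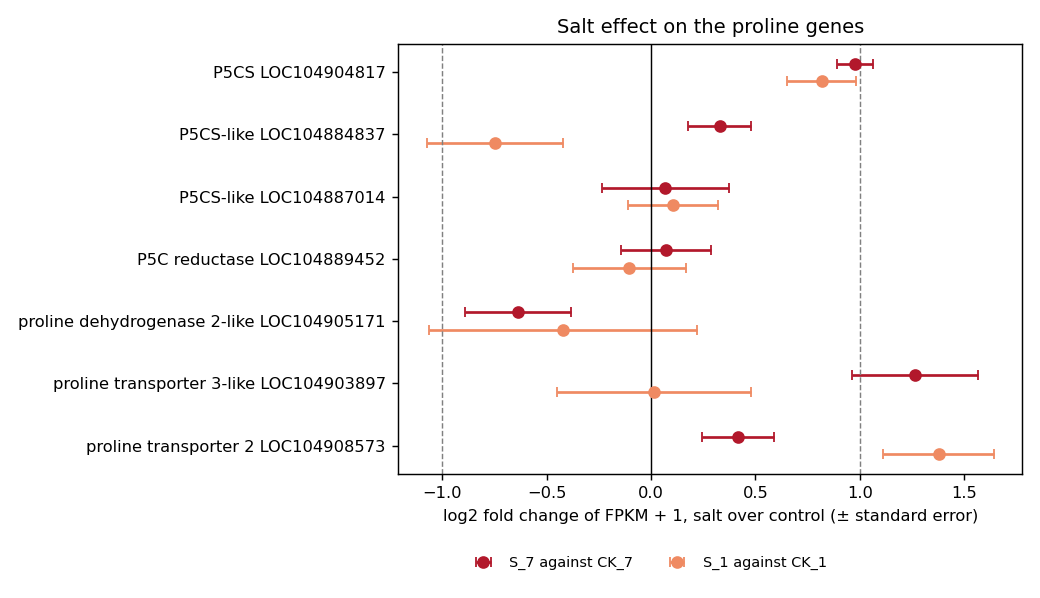
Log2 fold change of FPKM + 1, salt over control (horizontal axis), for the 7 proline genes on day 7 (dark red) and day 1 (orange). Points are limma estimates, bars are ± the standard error and dashed lines mark the fold limit of 1. Transporter 3-like passes the limit on day 7 (1.26) and transporter 2 on day 1 (1.38), with P5CS just inside it on day 7 (0.98).

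By count, 1 of the 7 genes rose and 0 fell on day 7, beside 5.08% of 27411 tested genes called in either direction (2.7% up and 2.38% down). On day 1, 1 rose and 0 fell, beside 5.99% of 27073 tested genes (3.44% up and 2.55% down). At an adjusted p under 0.05 without the fold limit, 1 of 7 passed on day 7 (background 1.69%), and 3 had an unadjusted P under 0.05 (background 18.9%). In limma 0 passed on day 1 (background 0.772%), where 2 had an unadjusted P under 0.05 (background 15.6%). The salt libraries lay above the controls without overlap in 3 of 7 genes on day 7 and in 2 of 7 on day 1, beside 15.5% (day 7) and 11.2% (day 1) of all tested genes, and below them in 0 of 7 on each day, beside 10.9% on day 7 and 10.6% on day 1. The median log2 fold change of the 7 genes was 0.33 on day 7 and 0.013 on day 1, beside 0.019 and 0.00087 over all tested genes. In the fit of all 12 libraries, 0 of 7 passed the interaction test at an adjusted p under 0.05 (background 1.76% of 28320 genes), and 2 had an unadjusted P under 0.05, which 14.7% of all genes had.

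The control roots also changed between the days. ProDH (LOC104905171) averaged 44.5 ± 7.69 FPKM in CK_7 and 159.5 ± 117.8 FPKM in CK_1 (SD, n = 3 each), with no overlap. It fell by 1.54 on the log2 scale (SE 0.59, adjusted p = 0.176). The call was lost without CK_1 replicate 1 or 3 or without any of the CK_7 replicates, with values of -0.97 to -1.62, and the adjusted p over the alternatives was 0.0351 to 0.364. Transporter 2 (LOC104908573) averaged 3.68 ± 0.718 FPKM in CK_7 and 1.07 ± 0.351 FPKM in CK_1 (SD, n = 3 each), and rose by 1.19 on the log2 scale (SE 0.25, adjusted p = 0.0462, over the alternatives 0.00488 to 0.142). The main P5CS gene was lower in CK_7 than in CK_1 without overlap (log2 fold change -0.47, adjusted p = 0.126) and was not called. Over the 12 alternatives its log2 fold change was -0.67 to -0.34. The adjusted p was 0.0235 to 0.309, and under 0.05 in 2 of them. Thus 1 of 7 genes rose and 1 fell between the control groups, beside 10.2% of 27402 tested genes called (6.85% up and 3.4% down, with 66.8% of the calls up, against 53.7% under median ratio scaling), and 1 lay above and 2 below without overlap, beside 21.1% and 11.5%. An adjusted p under 0.05 was reached by 1 of 7 (background 8.13%) and an unadjusted P under 0.05 by 3 (background 25.7%).

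In the salt roots, ProDH (LOC104905171) averaged 28.8 ± 8.82 FPKM in S_7 and 102.0 ± 41.5 FPKM in S_1 (SD, n = 3 each), again with no overlap. It fell by 1.75 on the log2 scale (SE 0.36, adjusted p = 0.0687), was called under each alternative except the threshold on the adjusted p, and its adjusted p over the alternatives was 0.0457 to 0.199. Transporter 3-like (LOC104903897) and the P5CS-like gene LOC104884837 were higher in S_7 than in S_1 without overlap, at 0.89 (adjusted p = 0.123) and 0.92 (adjusted p = 0.135), and were not called. The main P5CS gene was lower in S_7 than in S_1 without overlap, at -0.31 (adjusted p = 0.150). Over the alternatives this value was -0.59 to -0.27, with an adjusted p of 0.0651 to 0.309. In all, 0 of 7 genes rose and 1 fell, beside 6.78% of 27398 tested genes called (4.11% up and 2.66% down), and 2 lay above and 2 below without overlap, beside 22.6% and 8.01%. Of all genes called, 60.7% were up, against 37.0% under median ratio scaling, while ProDH fell under both. In limma 0 of 7 had an adjusted p under 0.05 (background 2.66%) and 4 had an unadjusted P under 0.05 (background 23.4%). The green tissue genes moved with the day as well, at 16.2 to 33.2 FPKM in S_7, against 83.6 to 468.7 in S_1, and at 27.3 to 41.9 FPKM in CK_7, against 90.9 to 232.1 in CK_1. Their part in these day comparisons was not tested. Over genes with a mean of at least 1 FPKM, the median log2 fold change between the days was 0.16 in the controls and 0.21 in the salt roots.

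The genes around the proline pathway were taken from 3 lists by description and from a KEGG pathway map. Of 21 genes of the ornithine and arginine route, 0 were called on day 1, and on day 7 1 rose and 0 fell (list medians 0.16 on day 1 and 0.078 on day 7). Over all tested genes 5.99% were called on day 1 and 5.08% on day 7, so 1 gene of 21 lies near that share. The gene that rose was an arginine decarboxylase-like gene of the polyamine branch, LOC104886780, at 0.816, 1.29 and 2.57 FPKM in S_7, against 0.143, 0.134 and 0.246 FPKM in CK_7 (log2 fold change 1.07, adjusted p = 0.120). Ornithine aminotransferase (LOC104901265), the other source of P5C, had 28.0, 20.6 and 19.8 FPKM in S_7, against 15.1, 14.3 and 16.6 FPKM in CK_7. On day 1 it had 28.3, 37.4 and 30.7 FPKM in S_1, against 18.7, 16.7 and 22.2 FPKM in CK_1. Its salt libraries were above the controls on both days, with log2 fold changes of 0.53 (SE 0.16, adjusted p = 0.165) and 0.71 (SE 0.18, adjusted p = 0.140), and it was not called. It was named for its place in the pathway.

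Of the 9 genes of glutamate supply, which include 2 folylpolyglutamate synthases caught by the words of the search, 1 rose on day 7 and 0 of 8 tested were called on day 1 (medians 0.13 and -0.051), beside 5.08% (day 7) and 5.99% (day 1) of all tested genes. The gene that rose was glutamate dehydrogenase B (LOC104888710), which interconverts glutamate and 2-oxoglutarate. It had 141.3, 89.2 and 106.1 FPKM in S_7, against 19.6, 28.9 and 29.2 FPKM in CK_7. After 1 day it had 199.98, 200.5 and 206.2 FPKM in S_1, against 184.5, 199.7 and 350.3 FPKM in CK_1. The log2 fold change of LOC104888710 was 2.07 (SE 0.24, adjusted p = 0.0275) on day 7 and -0.21 (SE 0.31, adjusted p = 0.779) on day 1, and the difference between the days was 2.28 (SE 0.38, adjusted p = 0.0223 for the interaction). In the controls it fell by 3.15 on the log2 scale in CK_7 relative to CK_1 (SE 0.31, adjusted p = 0.0102). Of 10 genes that use proline in proteins (prolyl 4-hydroxylases and prolyl-tRNA synthesis), 0 were called on either day.

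Of the 48 further genes on the KEGG map of arginine and proline metabolism, which shares 2 genes with the ornithine list and 7 with the list of proline users, 5 rose and 2 fell on day 7. Of the 47 tested on day 1, 2 rose and 3 fell (medians 0.096 on day 7 and 0.20 on day 1). Over all tested genes the shares were 2.7% up and 2.38% down on day 7, and 3.44% up and 2.55% down on day 1. Besides the P5CDH gene given above, those with the largest changes were the following. Spermine synthase (LOC104888274), an enzyme of polyamine synthesis, had 45.8, 27.7 and 36.2 FPKM in S_7, against 12.4, 12.5 and 14.1 FPKM in CK_7. The day 1 values were 33.0, 36.1 and 40.8 FPKM in S_1, against 11.9, 13.7 and 14.2 FPKM in CK_1. It rose on both days, each time by 1.40 on the log2 scale (adjusted p = 0.0415 on day 7 and 0.0364 on day 1).

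A probable polyamine oxidase 5 (LOC104884237) had 10.8, 6.86 and 7.17 FPKM in S_7 and was listed at 0 in all 3 CK_7 libraries (adjusted p = 0.00946). On day 1 it had 4.21, 2.62 and 2.66 FPKM in S_1, against 2.26, 3.75 and 0.986 FPKM in CK_1, and was not called (log2 fold change 0.39). Between the control groups it fell in CK_7 relative to CK_1 (log2 fold change -1.65, adjusted p = 0.0403). An S-adenosylmethionine decarboxylase-like gene (LOC104901756), which feeds polyamine synthesis, fell on both days, with log2 fold changes of -2.01 (adjusted p = 0.208) on day 7 and -2.63 (adjusted p = 0.130) on day 1. Cytoplasmic aspartate aminotransferase (LOC104902228) rose on day 1 (log2 fold change 1.94, adjusted p = 0.0785). A further polyamine oxidase (LOC104899694) fell on day 1 (log2 fold change -1.16, adjusted p = 0.128). The other called genes of the map, named after their values were seen to complete the count, were aldehyde dehydrogenases LOC104897407 (1.31, adjusted p = 0.0793) and LOC104890532 (1.29, adjusted p = 0.0190), which rose on day 7, a polyamine oxidase-like gene, LOC104908696, which fell on day 7 (-1.22, adjusted p = 0.145), and aldehyde dehydrogenase LOC104889977, which fell on day 1 (-1.01, adjusted p = 0.163).

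**Figure D4:**
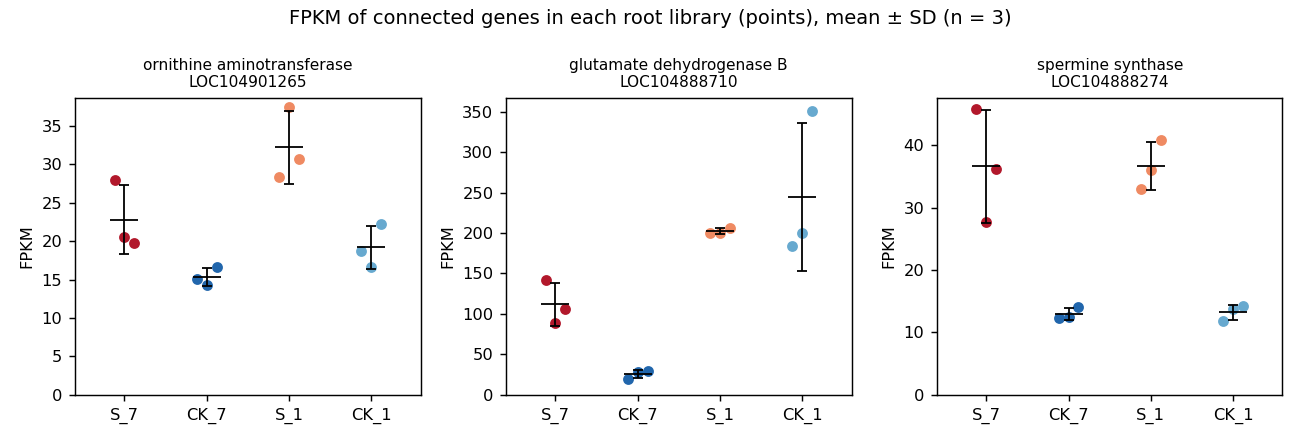
FPKM (vertical axes, linear from 0) of ornithine aminotransferase, glutamate dehydrogenase B and spermine synthase in the 3 libraries of each of the 4 groups. Points are libraries and bars are the mean ± SD (n = 3). Glutamate dehydrogenase B lies at 89.2 to 141.3 FPKM in S_7 and 19.6 to 29.2 in CK_7, while its S_1 and CK_1 libraries overlap.

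Among 9055 named genes with a mean of at least 5 FPKM, those whose pattern over the 12 libraries was most like that of the main P5CS gene were a type 2 metallothionein-like gene (LOC104884484, r = 0.97), a SKOR-like potassium channel (LOC104887294, r = 0.96) and choline monooxygenase (LOC104897072, r = 0.96), the first enzyme of glycine betaine synthesis. Choline monooxygenase averaged 285.3 FPKM in S_7, 38.2 in CK_7, 458.9 in S_1 and 91.0 in CK_1. The order of groups was that of P5CS, and the gene was picked for its likeness to P5CS in these same libraries. The most opposite patterns were those of LOC104899346 (r = -0.97) and LOC104906118 (r = -0.93), both of unknown function, and of ammonium transporter 3 member 3 (LOC104884417, r = -0.94). For ProDH the most alike were a probable E3 ubiquitin ligase RHB1A (LOC104892272, r = 0.96), another S-adenosylmethionine decarboxylase-like gene (LOC104896306, r = 0.96) and glycine-rich protein A3 (LOC104892460, r = 0.95). The most opposite to ProDH were LOC104901400 of unknown function, a Golgi complex subunit (LOC104883941) and kinesin KIN-14C (LOC104901088), each at r = -0.98. The r values describe 12 libraries that share 4 groups, and carry no test.

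All 7 genes matched protein-coding genes of the RefSeq annotation of the EL10.2 assembly. In the gene order of that assembly, the main P5CS gene and ProDH lie on the same chromosome with 33 protein-coding genes between them, and transporter 3-like lies on the other side of P5CS, with 79 protein-coding genes between.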

How the data were processed

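The authors sequenced poly(A) RNA as paired-end Illumina reads, used HISAT to align them against the sugar beet genome of NCBI, and estimated transcript levels with StringTie and Ballgown. The submitters' processing notes name HISAT2 2.0, StringTie 1.3.0 and Bowtie 0.12.2, and the sugar beet build is not given in the sources used here. The deposited FPKM values were made by the authors, and no counts were used. FPKM shows no sampling depth, so no counting interval is given. Sequences were not used here.

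Groups and replicates came from the labels. Each comparison was fitted with limma 3.58.1 (R 4.3.3, intensity trend, two-sided) on log2(FPKM + 1) over all genes above 0 in at least 1 of its 6 libraries, and the interaction in a fit of all 12. P-values were adjusted by Benjamini-Hochberg over all tested genes. On simulated data, 200 genes with a mean log2(FPKM + 1) above 2 were changed by 2 on the log2 scale. The fits recovered 94.5% (S_1 against CK_1), 93% (S_7 against CK_7), 95.5% (CK_7 against CK_1) and 89.5% (S_7 against S_1) of them, and the interaction 47%. They also called 316, 308, 322 and 343 unchanged genes in these comparisons, in that order, and 6 in the interaction. Recovery of smaller changes, such as those of the proline genes, or of changed genes of lower level was not simulated. Alternatives were the adjusted p as the threshold, a pseudocount of 0.1, a mean FPKM of at least 1, median ratio scaling, 1 fit of all libraries, a replicate block, and each library left out.

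The genes and lists were chosen with earlier results of these data known. Every proline gene is given. Of each connected list, the called genes with the largest changes were named, at most 4 per salt comparison, and ornithine aminotransferase for its role. Genes alike in pattern were the 3 with the highest and the 3 with the lowest Pearson r of log2(FPKM + 1). The deposited table also holds annotation columns, used for descriptions, enzyme numbers and pathways.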

Additional observations from a re-analysis of the deposited data

How the results depend on the processing

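At an adjusted p under 0.05 with the fold limit, 0 proline genes were called on day 1, 0 on day 7, 1 in CK_7 against CK_1 and 0 in the salt groups compared by day (S_7 against S_1), and over all genes 187, 355, 1544 and 552. With a pseudocount of 0.1, 2 were called in S_7 against CK_7 and 2 in S_7 against S_1, and over all genes 3041 (day 1), 2704 (day 7), 4918 (between the control groups) and 3703 (between the salt groups), against 1621, 1392, 2808 and 1857 in the reported fits. With 1 library left out, 1 to 2 proline genes were called on day 1, 1 to 2 on day 7, 1 to 2 between the control groups, 1 to 3 between the salt groups and 0 in the interaction, for which 273 to 565 genes were called over all genes. Median ratio scaling turned P5CR (LOC104889452) in CK_7 against CK_1 to -0.11 and transporter 2 (LOC104908573) in S_7 against S_1 to -0.0057. The P5CS to ProDH ratio of CK_7 was 0.597 with the main P5CS gene alone, against 0.810.

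Log2 fold changes that changed sign when 1 library was left out were those of P5CR, LOC104889452 (day 1 -0.31 to 0.041, day 7 -0.090 to 0.26, CK_7 against CK_1 -0.11 to 0.23), the low P5CS-like gene LOC104887014 (day 1 -0.036 to 0.21, day 7 -0.11 to 0.33, interaction -0.21 to 0.22), transporter 3-like, LOC104903897 (day 1 -0.48 to 0.30), and ProDH, LOC104905171 (day 1 -1.02 to 0.15, interaction -0.79 to 0.39). None of these was called. The cause was not tested.

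Same-numbered libraries of different groups hardly deviated together (r = -0.094 to 0.10). In CK_7 against CK_1, each CK_7 library was still closest to the CK_1 library of its own number (r = 0.039, 0.10 and 0.027). With 3 libraries per group this check cannot exclude a pairing by number. With the replicate block, the numbers of proline genes called were 1, 1, 2 and 1 in the 4 comparisons, as without it, while 230 genes passed the interaction against 499 without it. The main P5CS gene (LOC104904817) then had an adjusted p of 0.165 on day 7. FPKM values hold no read depth, so that the precision of the low genes, such as LOC104887014, is not known.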
